A study of Mus musculus with 6 samples.

Results

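Expression of 6 immune receptor genes, Cd72, Tnfrsf18, Tnfrsf4, Il18r1, Il1rl1 and Cxcr4, was examined in progenitors of megakaryocytes, the platelet-forming cells of bone marrow. The genes were listed by symbol and all array probes annotated to them were taken. Of the 6 genes, 5 had a probe, among 17711 genes with a probe in all, and together they had 8 of the 46632 probes; Il1rl1 was not analysed here. The genes were chosen with their values on these same arrays known, so the differences between genotypes given for them are descriptions and carry no test. The cells were sorted from bone marrow of mice of the strain mix 129SVxC57Bl/6 aged 3 to 4 months. All mice carried the TGPF4-CRE transgene, in which the Pf4 promoter drives Cre recombinase in megakaryocytes and their precursors. Controls were SCL wt/wt (titled TG +/+; wild-type below) and the other group was SCL fl/fl (titled TG fl/fl; Scl-deleted below), in which the design describes Scl as completely excised. Scl is the older name of Tal1, a basic helix-loop-helix factor gene that early blood formation needs. Each group had 3 arrays. Whether these stem from different mice or pools is not in the labels, so their spread may be technical in part, and their small number limits precision.

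These receptors are best known from lymphoid and innate immune cells. CD72 is an inhibitory C-type lectin of B cells; its cytoplasmic tail holds inhibitory tyrosine motifs that recruit the phosphatase SHP-1. GITR, the product of Tnfrsf18, and OX40, the product of Tnfrsf4, are costimulatory members of the tumour necrosis factor (TNF) receptor superfamily on T cells, and they signal through TRAF adaptors to NF-kappaB. The products of Il18r1 and Il1rl1 belong to the interleukin 1 (IL-1) receptor family; they bind IL-18 and IL-33 and signal through MyD88 and IRAK kinases. CXCR4 is the chemokine receptor for CXCL12 and is the member with a well known part in the megakaryocyte lineage, where it guides cells towards the bone marrow vessels.

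Per array, 15183 to 16338 probes were above background (detection p under 0.05). All 9 megakaryocyte markers with a probe were above background on at least 1 array. Of these, 8 passed the filter for testing, which asked for detection on at least 3 arrays. Pf4 was at 12.33 ± 0.22 (SD, n = 3) on wild-type and 12.26 ± 0.15 (SD, n = 3) on Scl-deleted arrays, as normalized log2 signal. Of 12 eosinophil and neutrophil markers, only 2 were not above background on any array. Mpo, from that list, was at 12.02 ± 0.67 on wild-type and 11.72 ± 0.17 on Scl-deleted arrays (SD, n = 3 each). These markers do not settle how pure the sort was. Tal1 was at 12.82, 13.27 and 13.29 on wild-type arrays 1, 2 and 3 and at 11.21, 9.85 and 11.45 on Scl-deleted arrays 1, 2 and 3, lower in the labelled direction but far above background; the sources used here do not place its probe inside or outside the excised stretch. Xist, the RNA of the inactive X chromosome, was at 9.25 to 10.90 on the wild-type arrays and at 10.55 on Scl-deleted array 3, but at 6.66 and 6.95 on Scl-deleted arrays 1 and 2, so those arrays stand apart in a sex-linked gene. Itga2b, the integrin alpha IIb gene, split the wild-type arrays, with 10.31 and 10.38 on arrays 1 and 2 and 12.36 on array 3, beside 12.27, 12.28 and 11.82 on Scl-deleted arrays 1, 2 and 3 (difference 1.11 ± 0.46, SE, limma adjusted p = 0.269). Each member is therefore also given without single arrays and on the 4 arrays with high Xist. Those 4 are the 3 wild-type arrays and Scl-deleted array 3, so each difference on them rests on 1 Scl-deleted array. In bulk RNA of a sort, fewer cells of a type and less RNA per cell cannot be told apart.

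Cd72 showed the highest difference of the 5 measured receptors. Its only probe, ILMN_2675669, was at a normalized log2 signal of 8.25, 8.08 and 8.39 on wild-type arrays 1, 2 and 3 and at 9.59, 9.87 and 9.61 on Scl-deleted arrays 1, 2 and 3. All Scl-deleted arrays lay above all wild-type arrays, and the gap between the lowest Scl-deleted and the highest wild-type array was 1.19. The means were 8.24 ± 0.16 (SD, n = 3) and 9.69 ± 0.15 (SD, n = 3), a difference of 1.45 on the log2 scale or 2.73-fold, which ranked 12 among the differences of 8946 tested genes counted from the highest. With background correction by neqc, which removes an estimated background before taking logs, the difference was 3.25-fold. The difference was 1.37 on the 4 arrays with high Xist, 1.35 with the Xist level as a covariate, and between 1.36 and 1.53 with 1 array left out, so its size was close to the same without any one array.

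Tnfrsf18, which encodes the GITR receptor, was higher at both of its probes, which are annotated to different transcripts. The brighter probe, ILMN_2419490, was at 7.39, 7.43 and 7.35 on wild-type arrays 1, 2 and 3 and at 8.11, 8.77 and 8.21 on Scl-deleted arrays 1, 2 and 3. The dimmer probe, ILMN_2465751, was at 6.98, 6.86 and 7.20 on the wild-type and at 7.39, 8.02 and 7.62 on the Scl-deleted arrays in the same order. At neither probe did the groups overlap, and Scl-deleted array 2 was the highest array at both. The means of the brighter probe were 7.39 ± 0.04 (SD, n = 3) and 8.37 ± 0.35 (SD, n = 3), a difference of 0.98 or 1.97-fold, which ranked 39 among all tested genes, and the dimmer probe differed by 0.66 or 1.58-fold. Background correction raised these folds to 2.73 and 2.27. Without Scl-deleted array 2 the brighter probe differed by 0.77, the lowest value among the fits that left out 1 array, and on the 4 arrays with high Xist the difference was 0.82.

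Tnfrsf4, which encodes the related receptor OX40, showed no such separation. Its probe, ILMN_2446559, was at 6.74, 6.87 and 6.91 on wild-type arrays 1, 2 and 3 and at 6.997, 6.84 and 6.84 on Scl-deleted arrays 1, 2 and 3. The groups overlapped, and the signal was low, although above background on all 6 arrays, where the lowest detected signals were 6.69 to 6.76. The means were 6.84 ± 0.09 and 6.89 ± 0.09 (SD, n = 3 each), and the difference of 0.05 was below the spread between arrays of a group. It turned to -0.01 with the Xist level as a covariate and was 0.10 with background correction.

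Il18r1, the ligand-binding chain of the IL-18 receptor, had 3 probes. The brightest, ILMN_1218525, was at 6.77, 7.02 and 7.03 on wild-type arrays 1, 2 and 3 and at 7.52, 7.46 and 7.44 on Scl-deleted arrays 1, 2 and 3. The groups did not overlap, with means of 6.94 ± 0.15 (SD, n = 3) and 7.47 ± 0.04 (SD, n = 3), a difference of 0.53 or 1.45-fold and a rank of 215 among all tested genes. The fold was 2.03 with background correction, since the signal lay near background. The second probe, ILMN_1255514, was detected on 0 of 3 wild-type and 3 of 3 Scl-deleted arrays, being not well above background in the former, and was at least 1.09-fold higher than the lowest signal that could be detected on the wild-type arrays (at least 1.20-fold with background correction). The third, ILMN_1244895, was not above background on any array, was not kept for testing, and gives no fold. Of the brightest probe, the difference was 0.45 without wild-type array 1, the lowest with 1 array left out, and 0.50 on the 4 arrays with high Xist.

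Cxcr4, the CXCL12 receptor gene, was higher with little spread. Its probe, ILMN_2630460, was at 8.89, 8.77 and 9.02 on wild-type arrays 1, 2 and 3 and at 9.70, 9.67 and 9.74 on Scl-deleted arrays 1, 2 and 3. The Scl-deleted arrays lay within a narrow band above every wild-type array. The means were 8.90 ± 0.12 and 9.71 ± 0.04 (SD, n = 3 each), a difference of 0.81 or 1.75-fold, ranked 57 among all tested genes. It was 1.87-fold with background correction, 0.85 on the log2 scale on the 4 arrays with high Xist, and between 0.75 and 0.87 with 1 array left out.

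**Figure D1:**
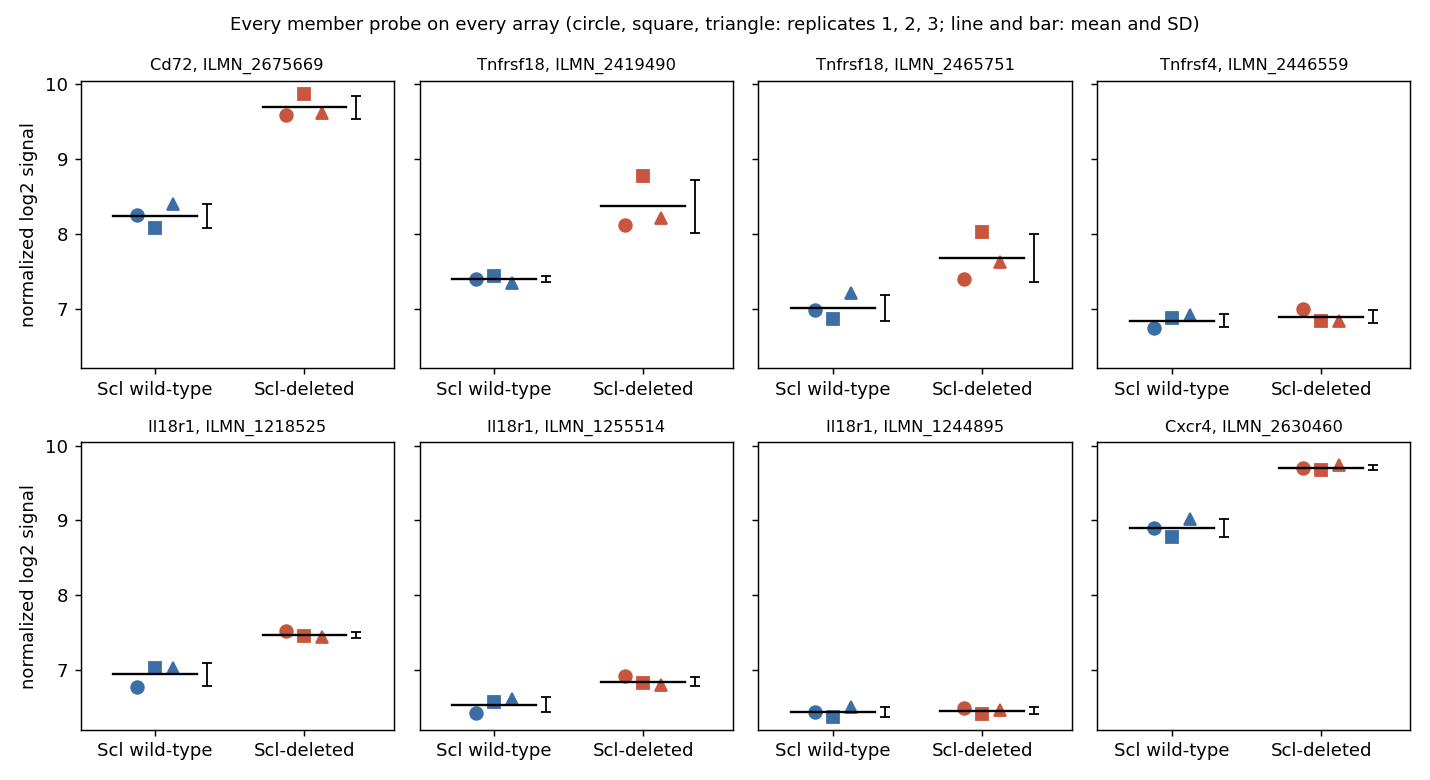
Normalized log2 signal (vertical axis) of each of the 8 member probes on the 3 wild-type (blue) and 3 Scl-deleted (red) arrays, with the mean (line) and SD (bar beside it). Cd72, both Tnfrsf18 probes, the 2 brighter Il18r1 probes and Cxcr4 separate the groups, while Tnfrsf4 and the third Il18r1 probe overlap.

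Taken by gene, 4 of the 5 measured receptors had non-overlapping groups with the Scl-deleted arrays higher, and this was so in 11.2% of all tested genes. The same 4 passed limma's adjusted p of 0.05 in the higher direction, as did 0.928% of all tested genes. The genes were chosen on this contrast, so nothing is read from either count. Over the 15 settings tried, including the fits without each array, the difference ran from 1.35 to 1.70 for Cd72, from 0.77 to 1.45 for Tnfrsf18, from 0.42 to 1.02 for Il18r1 and from 0.75 to 0.90 for Cxcr4, and Il18r1 and Tnfrsf4 were not measured under the stricter detection filter. The setting with the replicate number as a block leaves a difference of means unchanged by design, so it adds nothing to these ranges.

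**Figure D2:**
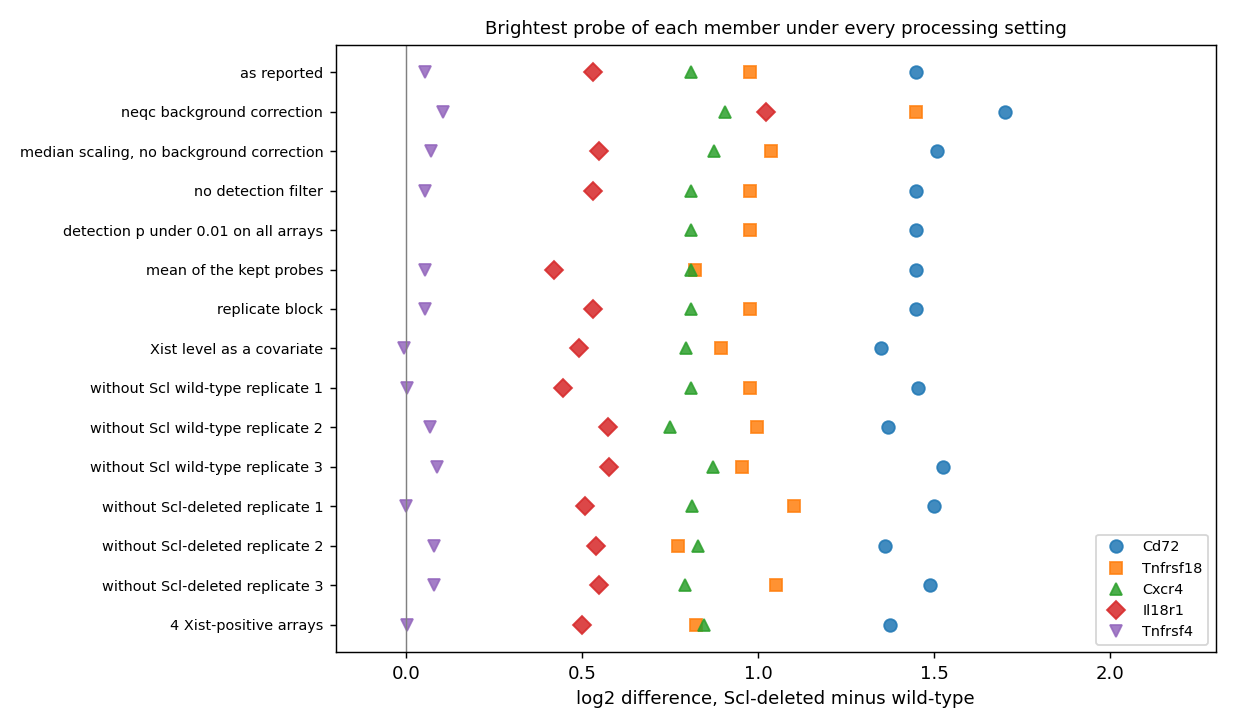
Log2 difference between Scl-deleted and wild-type arrays (horizontal axis) for the brightest probe of each measured receptor under each processing setting (rows). Cd72 lies at 1.35 or above in every row, and Tnfrsf4 stays between -0.01 and 0.10.

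The measured receptors lie on 2 chromosomes. In assembly GRCm38.p6, Tnfrsf4 (chr4:156013595-156016613) and Tnfrsf18 (chr4:156026322-156028894) are neighbours with 9708 bases between them, and Cd72 (chr4:43447724-43455102) lies far away on the same chromosome. Il1rl1 (chr1:40404864-40465418) and Il18r1 (chr1:40465552-40500854) are 133 bases apart within the cluster of IL-1 receptor family genes, and Cxcr4 (chr1:128588199-128592299) lies elsewhere on chromosome 1. Among the 24 other protein-coding genes within 3 places of a member, 13 were tested and 0 passed (limma, adjusted over all tested genes, of which 1.39% passed in either direction). Of these 13, 9 had a higher and 4 a lower mean on the Scl-deleted arrays. Sdf4, the neighbour of Tnfrsf4 on the other side, had a log2 difference of 0.01 ± 0.11 (SE), and Tesk1, which overlaps the end of Cd72, had -0.09 ± 0.10 (SE). In the receptor cluster Il1r1, the IL-1 receptor gene, had -0.06 ± 0.10 (SE, adjusted p = 0.816 by limma), and Il1rl2, the IL-36 receptor gene, had 0.18 ± 0.10 (SE, adjusted p = 0.373 by limma). Tnfrsf18 and Tnfrsf4 thus had differences of 0.98 and 0.05 side by side. The difference between them was not tested, since the genes were chosen with these values known.

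**Figure D3:**
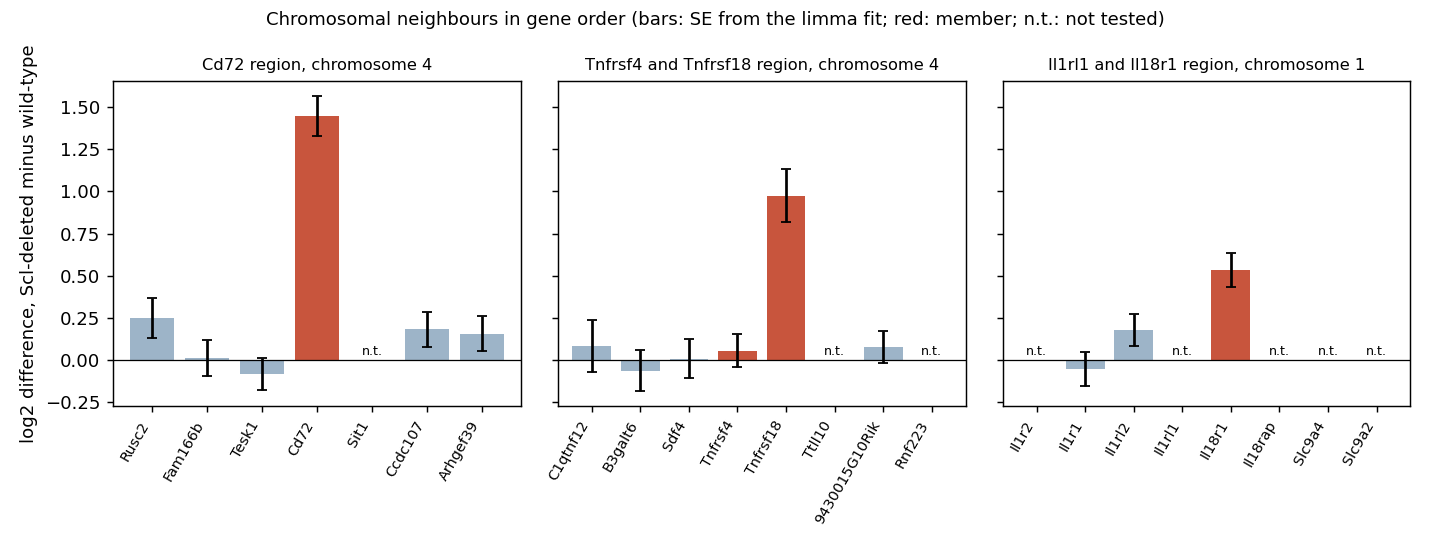
Log2 difference (vertical axis, error bars are SE from the limma fit) of the genes around Cd72, around Tnfrsf4 and Tnfrsf18, and around Il1rl1 and Il18r1, in their order on the chromosome. Members are red and genes marked n.t. were not tested; Cd72 at 1.45, Tnfrsf18 at 0.98 and Il18r1 at 0.53 stand among neighbours between -0.09 and 0.25.

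The promoter windows of Cd72, of Tnfrsf18 and of its neighbour Tnfrsf4 are printed because Cd72 and Tnfrsf18 had the highest differences and Tnfrsf4 overlapped between genotypes. They come from RefSeq (GRCm38.p6), 250 bases before to 50 after a start site, 5′ to 3′ on the gene's strand. Capitals mark matches on either strand to the E-box CAGATG, a form of the general E-box CANNTG that SCL with its partners is known to bind, to the E-box CAGCTG, or to the GATA factor motif (AGATAA and TGATAA, besides AGATAG and TGATAG).
Cd72, chr4:43454577-43454876, minus strand: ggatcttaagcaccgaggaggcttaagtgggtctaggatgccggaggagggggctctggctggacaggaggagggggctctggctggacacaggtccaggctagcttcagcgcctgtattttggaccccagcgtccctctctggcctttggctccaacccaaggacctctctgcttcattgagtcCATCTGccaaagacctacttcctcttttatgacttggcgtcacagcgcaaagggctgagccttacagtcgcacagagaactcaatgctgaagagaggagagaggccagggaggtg
Tnfrsf18, chr4:156026072-156026371, plus strand: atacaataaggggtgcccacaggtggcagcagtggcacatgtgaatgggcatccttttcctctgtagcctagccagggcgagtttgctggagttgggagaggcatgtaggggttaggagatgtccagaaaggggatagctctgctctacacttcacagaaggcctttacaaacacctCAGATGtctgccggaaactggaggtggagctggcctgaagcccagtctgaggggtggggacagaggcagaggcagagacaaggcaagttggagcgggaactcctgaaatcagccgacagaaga
Tnfrsf4, chr4:156013445-156013744, plus strand: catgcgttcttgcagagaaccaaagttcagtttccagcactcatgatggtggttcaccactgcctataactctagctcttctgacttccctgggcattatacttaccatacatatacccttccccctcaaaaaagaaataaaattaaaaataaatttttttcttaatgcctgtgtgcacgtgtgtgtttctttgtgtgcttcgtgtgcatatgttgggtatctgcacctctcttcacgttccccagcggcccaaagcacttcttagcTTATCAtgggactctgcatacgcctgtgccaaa
The window of Cd72 held CAGATG, read on the other strand, at position -65 counted from the start site, and that of Tnfrsf18 held it at position -73. Among all 32851 promoter windows of this length, 17.2% hold CAGATG. Tnfrsf4 had a GATA match at position 18 and no CAGATG; 29.8% of all windows hold a GATA match. The CAGCTG box, which 16.3% of all windows hold, was in none of the 9 windows of the 6 genes. The 2 windows of Il1rl1 held 5 and 1 GATA matches and no CAGATG. The 3 windows of Il18r1 and that of Cxcr4 held no GATA match, CAGCTG or CAGATG, and the general CANNTG is in 72.3% of all windows. These matches are letters in a window and show no binding.

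The other genes of these pathways were taken from lists by role, given in counts and medians beside those of all tested genes, whose median difference was 0.02. Of 26 other TNF receptor superfamily genes, 15 were tested and 0 passed, with a median of 0.01; the groups did not overlap in 2 genes, both lower, against 19.6% of all tested genes in either direction. The smallest p of the list was that of Tnfrsf1a, the main receptor for TNF, at 9.99, 9.95 and 9.92 on wild-type and 9.27, 8.80 and 9.56 on Scl-deleted arrays, a difference of -0.75 ± 0.17 (SE, limma adjusted p = 0.0776). Leaving out wild-type array 3 or Scl-deleted array 3 brought it to 0.0306 and 0.0382, with a range of limma adjusted p from 0.0306 to 0.507 across the alternatives. Cd27, another costimulatory receptor gene, had -0.31 ± 0.11 (SE, limma adjusted p = 0.187). Of 17 TNF ligand genes only 3 were tested, 0 passed and the median was -0.07. Tnfsf18 and Tnfsf4, which encode the ligands of GITR and OX40, were not above background on any array, and Tnfsf14 and Tnfsf13 had 0.25 ± 0.12 and -0.13 ± 0.18 (SE).

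In the list of 19 other IL-1 receptor family and ligand genes, 5 were tested and 0 passed, with a median of 0.18. The groups did not overlap in 1 gene, which was higher, against 11.2% of all tested genes in that direction. Il18rap, the second chain that IL-18 signalling needs, was not above background on any array, at 6.28 ± 0.01 (SD, n = 3) and 6.30 ± 0.14 (SD, n = 3), and neither were the ligand genes Il18 and Il33. Il1rap, the chain shared by several receptors of the family, was above background on 2 wild-type and 0 Scl-deleted arrays and was not tested. Sigirr, an inhibitory member of the family, had 0.43 ± 0.18 (SE, limma adjusted p = 0.262).

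Below the receptors, 20 of 30 genes of MyD88, TRAF and NF-kappaB signalling were tested; 1 rose, 0 fell and 19 did not pass, beside 0.928% of all tested genes that rose and 0.458% that fell. The median was 0.05, and the groups did not overlap in 5 genes, all higher, against 11.2% of all tested genes in that direction. The gene that rose was Irak3, which encodes an inhibitory IRAK of the MyD88 pathway. It was at 9.98, 9.89 and 9.60 on wild-type arrays 1, 2 and 3 and at 10.49, 10.67 and 10.58 on Scl-deleted arrays 1, 2 and 3, and the groups did not overlap. It rose 1.69-fold, by 0.76 ± 0.12 (SE) on the log2 scale (limma adjusted p = 0.0201). The adjusted p was 0.0886 without wild-type array 2 and 0.0597, 0.0788 and 0.0642 without Scl-deleted arrays 1, 2 and 3; over all alternatives it ran from 0.00639 to 0.438, while the difference stayed between 0.65 and 0.83. Myd88 had 0.22 ± 0.11 (SE, limma adjusted p = 0.365). Traf1 and Tnfaip3, which are NF-kappaB target genes, had 0.38 ± 0.09 and 0.44 ± 0.12 (SE) and did not pass (limma adjusted p = 0.0818 and 0.132). Traf1 was at 7.04 to 7.12 on the wild-type and 7.41 to 7.51 on the Scl-deleted arrays. Of the 20 tested genes 14 had a higher and 6 a lower mean, among the latter Traf2 at -0.36 ± 0.18 (SE). Birc3 and Relb were not above background on any array.

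Of 23 genes for CD72 ligands, partners and receptors with inhibitory motifs, 11 were tested; 0 rose, 1 fell and 10 did not pass, beside 0.928% and 0.458% of all tested genes. The median was -0.18, and the groups did not overlap in 3 genes that were higher and 4 that were lower, against 19.6% of all tested genes in either direction. Fcgr2b, the inhibitory Fc gamma receptor gene, which like Cd72 is known from B cells, fell from 7.82, 7.66 and 7.88 on wild-type arrays 1, 2 and 3 to 7.04, 6.99 and 7.13 on Scl-deleted arrays 1, 2 and 3. Its difference was -0.73 ± 0.10 (SE) with a limma adjusted p of 0.0123, which was 0.0663 without wild-type array 1 and ran from 0.00611 to 0.420 over the alternatives. With background correction the difference of Fcgr2b was -1.29. Ptpn6, which encodes the phosphatase SHP-1 that binds CD72, was at 10.07, 10.32 and 10.43 on wild-type and 10.58, 10.61 and 10.70 on Scl-deleted arrays, and its difference of 0.36 ± 0.11 (SE) did not pass (limma adjusted p = 0.170). Sema4d, which encodes a ligand of CD72, had -0.18 ± 0.12 (SE), and Cd5 was not above background on any array.

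The chemokine receptors apart from Cxcr4 were mostly not above background. Of the 20 in the list with a probe, 16 were not above background on any array, among them Ackr3, which encodes the other receptor of CXCL12. Of the 4 tested, 0 passed and the median was -0.09. Cxcr1, a receptor gene for neutrophil chemokines, was at 7.33, 7.33 and 7.05 on wild-type and 7.60, 8.70 and 7.80 on Scl-deleted arrays. Its groups did not overlap, the only such gene of the 4, against 11.2% of all tested genes in that direction. Its difference of 0.80 ± 0.25 (SE) did not pass (limma adjusted p = 0.161). The difference of Cxcr1 was 0.46 without Scl-deleted array 2, where it was highest, and 1.01 without Scl-deleted array 1. Ackr1, an atypical chemokine receptor gene, had -0.40 ± 0.37 (SE). Cxcl12 itself was not above background on any array. In the list of 29 CXCR4 ligand and signalling genes, 19 were tested and 0 passed, with a median of 0.07. The groups did not overlap in 4 genes that were higher and 1 that was lower, against 19.6% of all tested genes in either direction. Rgs1, a brake on chemokine receptor signalling, had -0.44 ± 0.13 (SE, limma adjusted p = 0.145), and Ptk2b, a kinase below CXCR4, had 0.45 ± 0.15 (SE, limma adjusted p = 0.195).

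**Figure D4:**
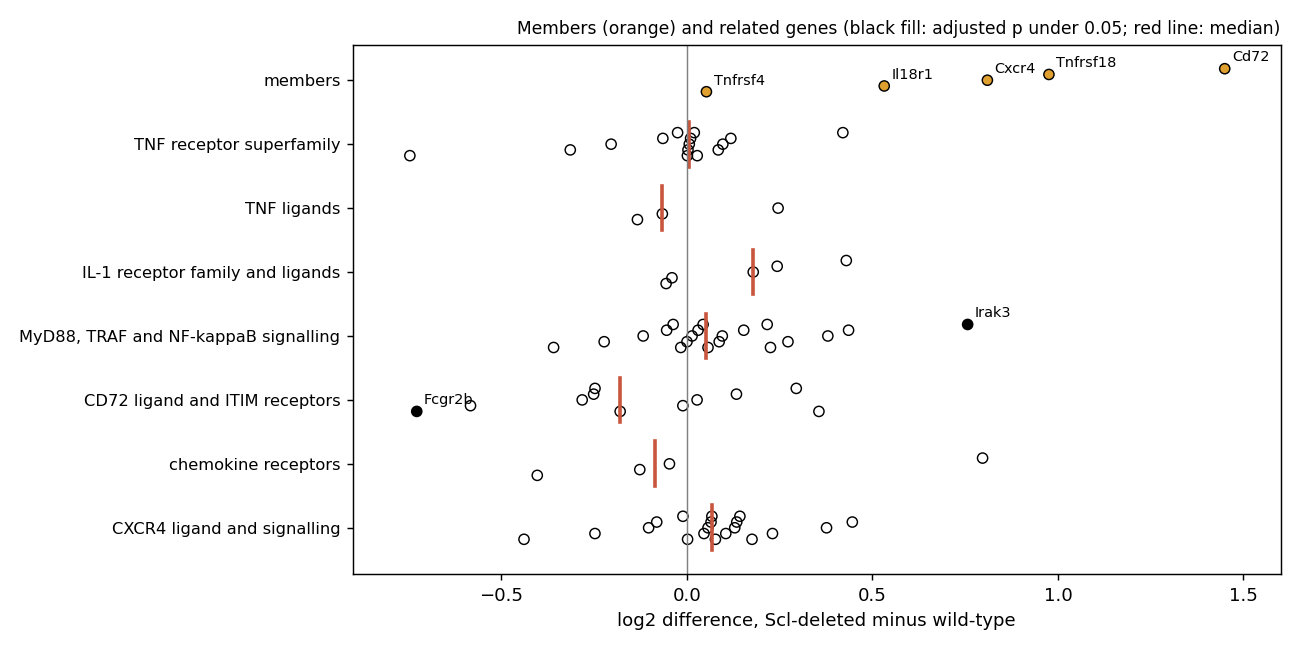
Log2 difference between Scl-deleted and wild-type arrays (horizontal axis) of the 5 measured receptors (orange) and of the tested genes in 7 related lists (rows), with the list median as a red line. Irak3 and Fcgr2b, filled in black, passed the adjusted p of 0.05, and the medians lie between -0.18 and 0.18.

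Markers of the lymphoid and innate cells in which these receptors are best known were set beside the members, and their part in the members' differences was not tested. Sums are of linear normalized signal over all genes of a list with a probe, background included. The 12 T cell markers with a probe summed to 971 to 995 on wild-type and 962 to 981 on Scl-deleted arrays; 0 were tested and 11 of the 12, including Cd3e, Cd3g, Cd4, Foxp3 and Il2ra, were not above background on any array. Of the 10 B cell markers with a probe, 6, including Cd79a and Pax5, were not above background on any array; the sum was 1688 to 1727 on wild-type and 1712 to 1907 on Scl-deleted arrays. Vpreb1, a surrogate light chain gene of early B cells, was at 6.95 ± 0.06 on wild-type and 7.40 ± 0.22 on Scl-deleted arrays (SD, n = 3 each; difference 0.46 ± 0.12, SE, limma adjusted p = 0.120), and Ebf1 had 0.07 ± 0.09 (SE). Cd79b, at 9.80 ± 0.03 (SD, n = 3) on the wild-type arrays, had 0.06 ± 0.11 (SE). Of the 4 tested B cell markers 3 had a higher and 1 a lower mean, with a median difference of 0.06 and 0 passing. The lower one was Ms4a1, at -0.03 ± 0.09 (SE). The groups did not overlap in 2 of the 4, both higher, against 11.2% of all tested genes in that direction.

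Of the 12 NK and innate lymphoid markers, 8 were not above background on any array, including Ncr1, Il7r and Rora. The sum was 6681 to 6813 on wild-type and 6628 to 13038 on Scl-deleted arrays; Nkg7, a granule protein gene and the brightest of the list, was at 12.45, 13.55 and 12.87 on Scl-deleted arrays 1, 2 and 3 against 12.44 to 12.49 on the wild-type arrays, and Gata3 had a difference of -0.25 ± 0.13 (SE). Of the 4 tested genes of this list 2 had a higher and 2 a lower mean, with a median difference of -0.03; Klrb1c, an NK receptor gene, was at 6.93 to 7.02 on wild-type and 6.72 to 6.89 on Scl-deleted arrays. Scl-deleted array 2, where Nkg7 was highest, was also the highest array for Cd72 and for both Tnfrsf18 probes. This is not particular to Nkg7, since Cpa3 (8.17) and Gp9 (10.57), from other lists, were also highest on that array. Among the other tested genes of the NK list, Il13 was highest there too (7.27), Klrb1c was not (6.87) and Gata3 was lowest (6.65). For Cxcr4 Scl-deleted array 2 was the lowest Scl-deleted array, at 9.67. For the brightest Il18r1 probe it lay below Scl-deleted array 1, at 7.46 against 7.52. The 12 mast cell and basophil markers summed to 1315 to 1494 and 1275 to 1621, with 6 of them, including Ms4a2 and Mcpt8, not above background on any array. Of the 6 tested genes of that list 5 had a higher and 1 a lower mean, with a median difference of 0.07 and 0 passing. The lower one was Prss34, a basophil protease gene, at -1.14 ± 0.26 (SE, limma adjusted p = 0.0762). Cpa3, a mast cell protease gene, had 0.68 ± 0.19 (SE, limma adjusted p = 0.139). Eosinophil and neutrophil markers were lower in all 7 tested genes, with a median of -0.42 and 0 passing, and summed to 6781 to 14984 on wild-type and 6381 to 7757 on Scl-deleted arrays; Prg2 and S100a8, granule protein genes of eosinophils and neutrophils, had -1.36 ± 0.43 and -0.78 ± 0.28 (SE). Of the 10 macrophage and dendritic cell markers with a probe, 7 were not above background on any array, and the sum was 1380 to 1513 and 1309 to 1502, with H2-Ab1 at a difference of -0.16 ± 0.14 and Siglech at 0.07 ± 0.13 (SE). The 9 megakaryocyte markers summed to 38949 to 41044 and 30608 to 37003, with a median difference of -0.19 over 8 tested genes and 0 passing; 2 of the 8 had a higher mean, Itga2b by 1.11 ± 0.46 and Gp9 by 0.33 ± 0.22 (SE), and 6 a lower one, among them Vwf at -0.45 ± 0.10 and Ppbp at -0.50 ± 0.21 (SE).

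The tested genes whose pattern was most like that of each receptor were found by Pearson correlation over the 6 arrays, among 910 genes with an SD of at least 0.3. The points share the split by genotype, so any gene that differs between the groups correlates with a member that does. For Cd72 these were Foxp1 (r = 0.999), a forkhead transcription factor gene, Usp20 (r = 0.996), a deubiquitinase gene, and Ank3 (r = 0.995), which encodes ankyrin G. Foxp1 was also the most alike for Cxcr4 (r = 0.988), followed by Bcl2 (r = 0.988), the survival gene, and Hyi (r = 0.980). For Tnfrsf18 they were Carhsp1 (r = 0.997), Spaca9 (r = 0.996) and Arpp21 (r = 0.994). For Il18r1 they were Myo6 (r = 0.989), an unconventional myosin gene, Rab27a (r = 0.979), a secretory granule GTPase gene, and Ikzf1 (r = 0.977), which encodes the lymphoid transcription factor Ikaros. Tnfrsf4 had no pattern as close, with Inpp4b highest at r = 0.945, then Tubb6 (r = 0.857) and Ddx6 (r = 0.854). Among the members, Cd72 and Cxcr4 had r = 0.985, Cd72 and Tnfrsf18 r = 0.949, Cd72 and Il18r1 r = 0.929, and Tnfrsf4 had r of 0.14 to 0.57 with the other 4. Since the most alike genes were picked for a pattern that follows the genotypes, their own differences are given without a test. With the brightest probe these were 0.56 for Foxp1, 0.67 for Bcl2 and 0.99 for Hyi. With the mean of the kept probes they were 0.30, 0.45 and 0.12.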

How the data were processed

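Biotin-labelled amplified total RNA of sorted cells was read on Illumina bead arrays, per the labels' protocols. The authors deposited log2 values in 2 tables: signals with no scaling between arrays, and normalized log2 signals with the same distribution on every array, as the values show. The deposited detection score, a fraction from 0 to 1 for each probe, is headed as a p-value but rises with the signal (lowest rank correlation 0.997), so 1 minus it was used as detection p. The notes on processing by the submitters list limma without a version. No source used here states a background subtraction, so folds of dim probes may be too small. Levels and differences are on the authors' normalized log2 values.

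Groups came from the titles. Probes with detection p under 0.05 on at least 3 of 6 arrays were kept (16122), and the brightest kept probe stood for each of 8946 genes. Gene symbols came from the platform annotation, with 29976 probes given 1 symbol, 10 several and 16646 none, updated through RefSeq (GRCm38.p6). Groups were compared with limma 3.58.1 in R 4.3.3 (lmFit and eBayes, two-sided, Benjamini-Hochberg over all tested genes, threshold 0.05), and the fit was tested on simulated data. The members, gene lists and tests were chosen with earlier results of these data known. Named were all members, Tal1, Xist, their known ligands and partners, in each list the called genes or else the 2 of smallest p, and the 3 genes most alike; other genes named were chosen after their values were seen. Alternatives were neqc with an offset of 16, median scaling, no detection filter, detection p under 0.01 on all 6 arrays, the mean of a gene's probes, the replicate number as a block, Xist as a covariate and leaving out each array. The 4 arrays with high Xist were added after seeing the data.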

Additional observations from a re-analysis of the deposited data

How the results depend on the processing

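With 1 array left out, 15 to 636 genes were called higher and 8 to 438 lower, against 83 and 41 as reported; the most calls came without wild-type array 3 and the fewest without wild-type array 2. Calls higher and lower were 10 and 3 with median scaling, 12 and 7 with the replicate block, 8 and 1 with Xist as a covariate, and 0 and 0 on the 4 arrays with high Xist, where a single Scl-deleted array is assumed to vary like the wild-type arrays. Deviations of arrays with the same replicate number had correlations of 0.08, -0.32 and -0.22, which do not settle whether these numbers pair the arrays. With 1 array per group in each block, the replicate block cannot change a difference of means. Members moved by more than the spread between arrays only with background correction (Cd72 1.70, Tnfrsf18 1.45, Il18r1 1.02, Cxcr4 0.90) and, for Il18r1, with the mean of its probes (0.42). With 1 array left out they ran from 1.36 to 1.53 (Cd72), 0.77 to 1.10 (Tnfrsf18), 0.00 to 0.09 (Tnfrsf4), 0.45 to 0.57 (Il18r1) and 0.75 to 0.87 (Cxcr4).

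MyD88 pathway calls numbered 2 with background correction and 0 with median scaling, the replicate block, Xist as a covariate and the 4 arrays with high Xist. Calls in the list of CD72 ligands and inhibitory receptors were 0 under those last 4 settings and under the stricter filter, which did not test Fcgr2b. With 1 array left out the calls were 0 to 3 for the MyD88 pathway, 0 to 2 for inhibitory receptors, 0 to 2 for TNF receptors, 0 to 1 for the IL-1 receptor family and 0 to 3 for CXCR4 signalling, each highest without wild-type array 3; TNF ligands and chemokine receptors had 0 throughout. Differences of genes that had not passed changed sign: with Xist as a covariate Ackr1 0.24, H2-Ab1 0.0014, Siglech -0.067 and Tubb6 -0.043; on the 4 arrays with high Xist Ackr1 0.28, H2-Ab1 0.12, Siglech -0.048, Tubb6 -0.036 and Tnfsf13 0.016. With 1 array left out Ackr1 ran from -0.74 to 0.11, Siglech from -0.041 to 0.16, Tubb6 from -0.071 to 0.42 and Tnfsf13 from -0.32 to 0.016. The cause was not tested.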
